A study of Mus musculus with 8 samples.

Results

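The course of reprogramming under cyclosporin A (CSA) between day 3 and day 6 was taken from the 4 arrays of CSA-treated cells, 2 at each day, out of 8 arrays in the series, chosen by the treatment and day in their labels. The cells were mouse cells of C57BL/6 background in a secondary reprogramming system, in which Oct4 (Pou5f1), Sox2, Klf4 and Myc (OSKM) are switched on by doxycycline. All 4 groups received doxycycline, which the labels write as 2 mg per ml, in a medium for embryonic stem cells that held 15% serum and leukemia inhibitory factor (LIF) at 100 units per ml. The CSA groups also received CSA, written as 10 mM, and the other 2 groups received DMSO at the same days and are used here as the second course. Both doses are far above those usual in cell culture and may be slips of the unit (milli for micro), so the concentrations used are not settled. The labels name the samples only as reprogramming cells: no source used here gives the cell type at the start, the age of the animals or the promoter that drives the factors. Each group's 2 arrays are described in the design text as separate biological repeats, and their small number limits the precision of every value.

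CSA binds cyclophilins, and the complex inhibits calcineurin, a calcium-dependent phosphatase that releases NFAT transcription factors into the nucleus. During OSKM reprogramming, somatic cells are known to lose mesenchymal genes and to gain epithelial genes early, before the pluripotency network becomes active. Cells that do not complete reprogramming can show fibroblast, stress-responsive or keratinocyte-like expression, so that a culture at day 3 or day 6 may be a mixture. The make-up of the cultures used here was not measured. In such bulk samples, fewer cells of a type and less RNA per cell cannot be told apart.

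Values are log2 signals of 1 probe set per gene, changes are day 6 minus day 3 on the log2 scale with limma's moderated standard error, and adjusted p-values are limma's with Benjamini-Hochberg adjustment and a threshold of 0.05. Of 12529 genes tested, 4519 passed (36.1%) under CSA: 2535 rose (20.2%) and 1984 fell (15.8%) from day 3 to day 6. The arrays of the days did not overlap, with day 6 higher, for 39.7% of genes and with day 6 lower for 29.4%. Changes of at least 2-fold were mostly upward, with 775 genes higher (6.19%) and 171 lower (1.36%), and the median size of a called change was 0.59. Arrays of the same group correlated at 0.968 to 0.974 and the CSA arrays of different days at 0.941 to 0.943. The median signal of tested probe sets rose from 8.23 and 8.24 at day 3 to 8.44 and 8.45 at day 6, so the balance of rises and falls depends on the scaling. Of the called probe sets 58.6% were higher at day 6 as deposited, 49.0% after quantile normalization and 31.2% when each array was centred on its median, which moved the median change of all genes from 0.08 to -0.13. The list medians below are therefore to be read against the all-gene median of 0.08, and a turn of a list's median under centring is given beside that list. Counts of rises and falls in a list are to be read against the 20.2% and 15.8% of all genes. Without CSA day 3 replicate 1 the number of called probe sets dropped from 8358 (30.9%) to 5417.

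**Figure D1:**
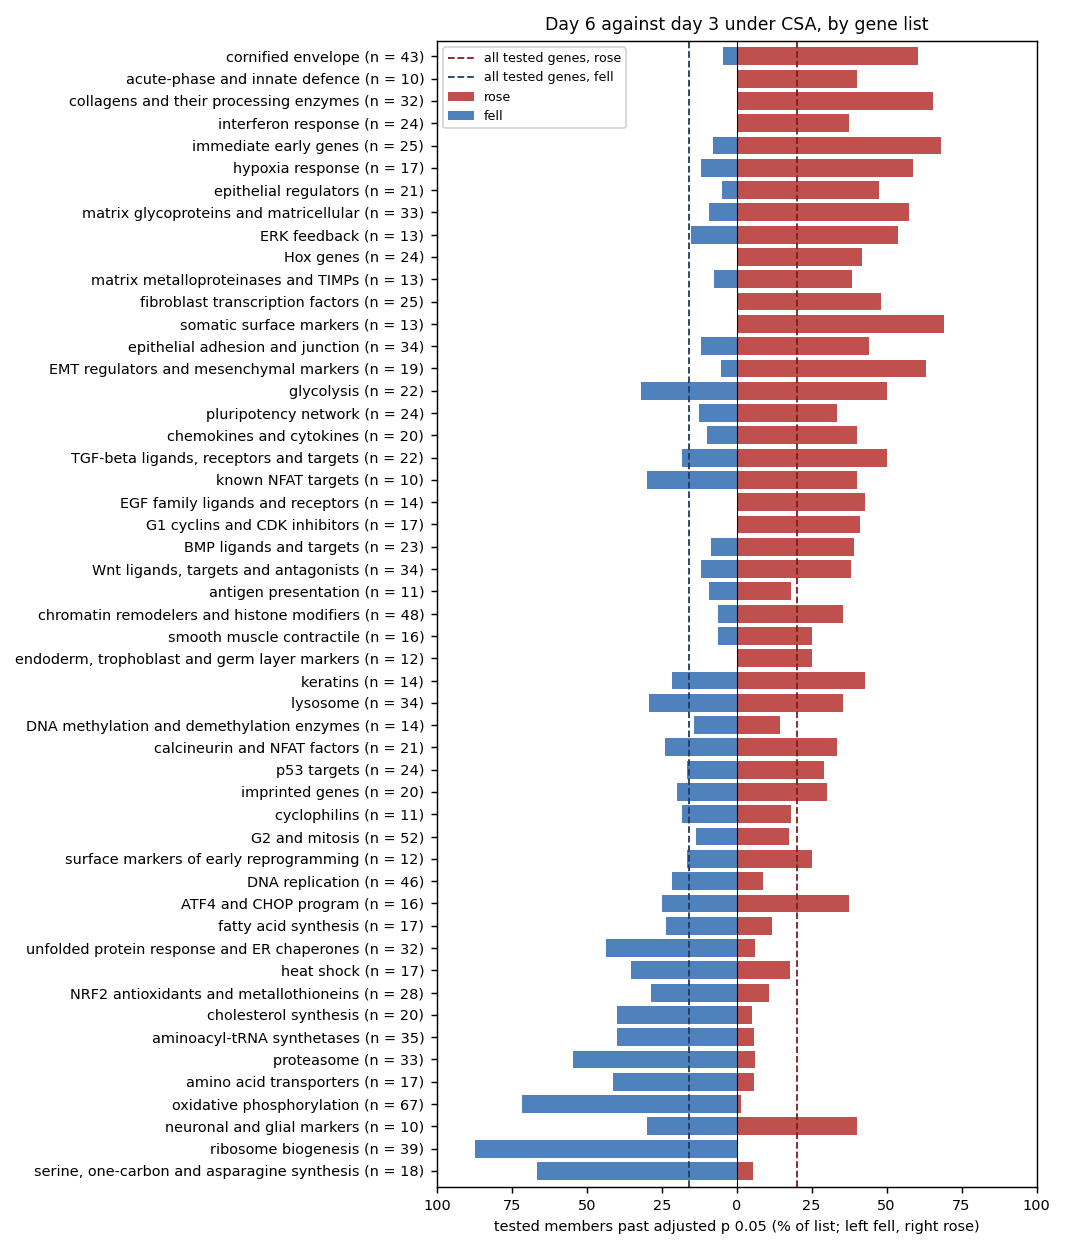
For each of the 51 gene lists with at least 10 tested members, the bars give the percentage of tested members that rose (right) or fell (left) under CSA past an adjusted p of 0.05, ordered by the list's median change. The dashed lines mark the shares over all tested genes, 20.2% rose and 15.8% fell; ribosome biogenesis has 34 of 39 members on the left, and collagens 21 of 32 on the right.

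The immediate early genes, which serum and growth factors switch on through ERK signalling, mostly rose. Of 25 tested members 17 rose and 2 fell, with a median of 0.79. Fos, the AP-1 subunit that is the classical immediate early gene, had signals of 9.51 and 8.86 at day 3 and of 13.48 and 13.54 at day 6. The groups lay far apart, with the day 6 arrays at the higher level, and the change was 4.33 ± 0.16, or 20.1-fold (adjusted p = 5.8e-08). Egr1, a zinc finger factor induced by the same route, read 9.23 and 8.48 at day 3 and 12.59 and 12.44 at day 6. Its change was 3.66 ± 0.20 (adjusted p = 6.01e-07). Fosb, another AP-1 subunit, was dim at day 3 at 5.79 and 5.06 and reached 9.44 and 9.35 at day 6. Egr3 rose by 3.05 ± 0.38 (1.53 as the mean of its probe sets) and Dusp1, a phosphatase that switches off MAP kinases, by 1.37 ± 0.09. Jun rose by 0.70 ± 0.09. Fosl1 fell by 1.16 on the log2 scale and Klf10 by 0.31, and both were the exceptions in this list.

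The same genes moved in DMSO, where 21 rose and 1 fell with a median of 1.34. Fos changed there by 4.84 and Egr1 by 4.18, and the test of the difference of the courses passed for neither gene (adjusted p = 0.25 and adjusted p = 0.364). For 7 of 25 members the course under CSA was lower by the test of the difference, against 3.43% of all genes, and for 0 it was higher. Jun was among them, with a change of 0.70 under CSA and 1.60 in DMSO (adjusted p = 0.00402 for the difference), and so were Atf3 and Btg2. Feedback inhibitors and targets of ERK rose as well: 7 of 13 tested rose and 2 fell, with a median of 0.62. Dusp6, a phosphatase specific for ERK, rose by 1.25 ± 0.13, the ETS factor Etv5 by 1.64 ± 0.16 and Spred1, an inhibitor of the pathway, by 0.62 ± 0.10.

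**Figure D2:**
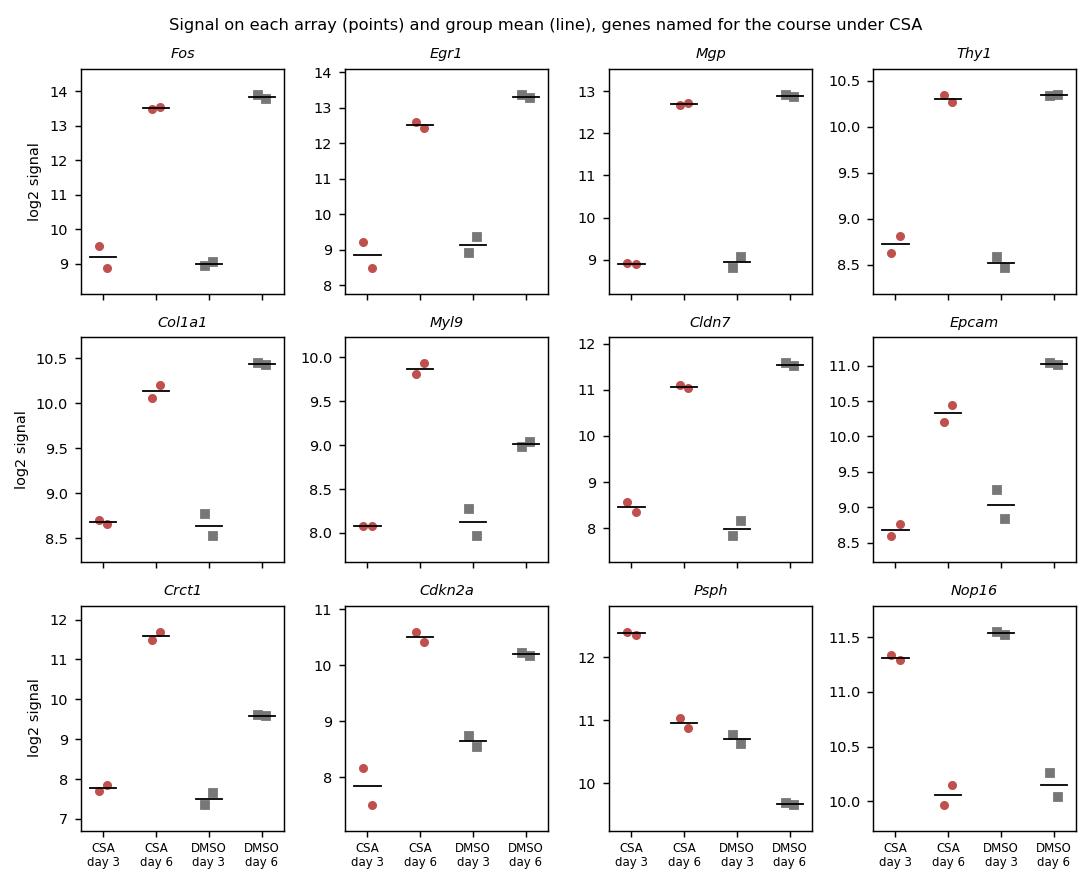
The log2 signal of 12 genes on each of the 8 arrays is shown as points, circles for CSA and squares for DMSO, with a line at the group mean; each panel has its own vertical scale. Fos lies near 9 at day 3 and above 13 at day 6 in both treatments, while Crct1 at day 6 is near 12 under CSA and below 10 in DMSO.

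Extracellular matrix genes rose as a broad group in both treatments, and values are for CSA unless DMSO is named. Of 32 tested collagens and collagen-processing enzymes 21 rose and 0 fell, with a median of 0.88, and 18 of the 32 still rose when arrays were centred. Mgp, a matrix protein that binds calcium and inhibits calcification, had signals of 8.93 and 8.90 at day 3 and of 12.68 and 12.72 at day 6. Replicates differed by less than 0.1 at each day, and the change was 3.78 ± 0.10, or 13.8-fold (adjusted p = 2.58e-09). Col1a1, a chain of the fibrillar collagen of connective tissue, read 8.70 and 8.66 at day 3 and 10.06 and 10.20 at day 6, a change of 1.45 ± 0.12 (adjusted p = 1.05e-05). Its partner chain Col1a2 was already abundant at 11.98 and 11.94 and reached 13.16 and 13.20. Col3a1 rose by 1.68 ± 0.08 and the short-chain collagen Col8a1 by 2.33 ± 0.11, while the basement membrane chain Col4a2 rose by 1.40 ± 0.09. Thus fibrillar and basement membrane chains were both among the members that rose. In DMSO 25 of the 32 rose and 0 fell, with a median of 1.17.

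Of 33 tested matrix glycoproteins 19 rose and 3 fell, with a median of 0.66. The adhesive glycoprotein thrombospondin (Thbs1) rose by 1.42 ± 0.07, the proteoglycan Bgn by 1.46 ± 0.09 and Fbln2 by 1.36 ± 0.09. The 3 that fell were Dcn, Lamb1 and Fbln1, and for Dcn and Fbln1 another probe set was past the threshold in the opposite direction. Among metalloproteinases and their inhibitors 5 of 13 rose and 1 fell. Mmp3, a secreted protease of the matrix, went from 4.94 and 5.68 to 8.36 and 7.99, and the inhibitor Timp3 from 12.40 and 12.39 to 13.39 and 13.44. In DMSO 22 matrix glycoproteins rose and 5 fell, with a median of 0.8. Of the metalloproteinases and inhibitors 4 rose and 3 fell there.

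Mesenchymal regulators rose over the same interval. In the list of epithelial-mesenchymal transition (EMT) regulators and mesenchymal markers 12 of 19 tested genes rose and 1 fell (S100a4), with a median of 0.46. Snai2, a repressor of epithelial genes, read 9.21 and 9.05 at day 3 and 10.43 and 10.52 at day 6, a change of 1.35 ± 0.12 (adjusted p = 1.32e-05). That call rests on a probe set that can read several genes; the remaining probe set changed by 0.69 and did not pass. Twist1 rose by 1.07 ± 0.14 (adjusted p = 0.00024) and Zeb1 by 0.70 ± 0.14 (adjusted p = 0.00275), although the mean over the probe sets of Zeb1 did not pass. Zeb2 rose by 1.05 ± 0.32 (adjusted p = 0.0271), a call that 6 alternatives ended, among them both other scalings and leaving out either day 3 array. Snai1 stayed dim, at 6.17 and 6.06 and then 6.22 and 6.20, and did not pass. Fibronectin (Fn1) rose by 2.11 ± 0.07 and Tcf4 by 1.46 ± 0.09.

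Vimentin, the intermediate filament of mesenchymal cells, was among the brightest signals, at 14.40 and 14.30 at day 3 and 14.66 and 14.53 at day 6. It rose by 0.25 ± 0.07 under CSA (adjusted p = 0.0159) and fell by 0.30 in DMSO (adjusted p = 0.00372), a difference of 0.55 ± 0.09 (adjusted p = 0.0101). The rise under CSA did not pass when arrays were centred, without the intensity trend, or without CSA day 3 replicate 2 or CSA day 6 replicate 1.

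Surface proteins of fibroblasts followed the matrix. Of 13 tested members 9 rose and 0 fell, with a median of 0.52. Thy1, a fibroblast surface glycoprotein that is usually lost in cells that reprogram, had signals of 8.63 and 8.81 at day 3 and of 10.34 and 10.27 at day 6. The change was 1.58 ± 0.11 (adjusted p = 4.22e-06), with no overlap of the arrays, and in DMSO it was 1.82. The receptor Pdgfrb rose from 5.40 and 5.73 to 8.35 and 8.30, and Cd34 rose by 0.99 ± 0.13. The rise of Pdgfra, 1.44 ± 0.35 (adjusted p = 0.00999), did not pass without CSA day 3 replicate 2 or CSA day 6 replicate 1. Cd44 changed by 0.15 ± 0.06 on its brightest probe set and did not pass (adjusted p = 0.0897). Another of its probe sets rose by 0.39 (adjusted p = 0.00251), and over the alternatives the change of Cd44 ran from -0.07 to 0.35.

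Transcription factors of fibroblasts and positional identity pointed the same way. Among fibroblast factors 12 of 25 rose and 0 fell, with Foxc1 at 1.40 ± 0.16 and Nfix at 0.54 ± 0.08. Of 24 tested Hox genes, which record position along the body axis, 10 rose and 0 fell, and 6 rose and 0 fell under centring and under quantile normalization. Hoxa5 read 7.34 and 7.30 at day 3 and 9.16 and 9.37 at day 6, a change of 1.94 ± 0.16 (adjusted p = 9.87e-06; 1.19 as the mean of its probe sets), and Hoxc8 rose by 0.96 ± 0.12. In DMSO 5 Hox genes rose and 1 fell, and the difference of the courses passed for 0 of the 24, where 726 of all genes (5.79%) passed.

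Most smooth muscle contractile genes did not pass under CSA. Of 16 tested members 11 did not pass, 4 rose and 1 fell, where 20.2% of all genes rose and 15.8% fell. Rises were thus little more frequent than over all genes, and the median of 0.14 turned to -0.07 under centring. Acta2, the smooth muscle actin of contractile fibroblasts, read 11.49 and 11.46 at day 3 and 12.81 and 12.83 at day 6, a change of 1.35 ± 0.08 (adjusted p = 1.56e-06). The myosin light chain Myl9 read 8.08 and 8.08 and then 9.81 and 9.93, a change of 1.79 ± 0.15 (adjusted p = 1e-05). The actin-binding protein Tagln rose by 0.87 ± 0.10 and the calponin Cnn2 by 0.43 ± 0.07, while the enteric actin Actg2 fell by 0.95 on the log2 scale. In DMSO the corresponding changes were 0.53 for Acta2, 0.89 for Myl9, 0.13 for Tagln, -0.21 for Cnn2 and -1.86 for Actg2, and the course under CSA was higher in each (adjusted p from 0.00448 to 0.0360). In all, 8 of 16 members had a higher course under CSA and 0 a lower one, against 2.36% and 3.43% of all genes.

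Many contractile genes and many immediate early genes are known targets of serum response factor, which binds the CArG box. The letters of that motif, read on both strands, stood in the 250 bases before the gene start (RefSeq, GRCm38.p6) of 439 of 27025 genes (1.62%), of 5 of 17 contractile genes (29.4%) and of 3 of 21 immediate early genes (14.3%). A gene of each list is shown because the 2 courses of these lists differed in opposite directions: Myl9, chr2:156775214-156775463 on the plus strand, and Zfp36, chr7:28379229-28379478 on the minus strand, both written 5′ to 3′ up to the base before the gene start, with the CArG box in capitals.
Myl9: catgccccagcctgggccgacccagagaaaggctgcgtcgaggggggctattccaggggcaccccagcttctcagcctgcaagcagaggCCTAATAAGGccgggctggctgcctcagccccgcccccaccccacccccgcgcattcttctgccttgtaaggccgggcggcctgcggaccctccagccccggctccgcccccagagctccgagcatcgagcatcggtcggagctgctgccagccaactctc
Zfp36: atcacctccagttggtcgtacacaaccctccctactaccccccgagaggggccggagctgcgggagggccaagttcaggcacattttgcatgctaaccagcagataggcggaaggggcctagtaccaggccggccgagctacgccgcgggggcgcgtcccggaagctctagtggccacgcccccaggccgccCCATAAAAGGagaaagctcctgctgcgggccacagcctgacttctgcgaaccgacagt
The match lies 161 to 152 bases before the start in Myl9 and 58 to 49 bases before it in Zfp36. Zfp36, which encodes an RNA-binding protein that destabilises cytokine messages, went from 8.76 and 8.82 to 10.36 and 10.44. Its change of 1.61 ± 0.11 was smaller than the 2.31 in DMSO (adjusted p = 0.0263 for the difference), whereas that of Myl9 was larger under CSA (adjusted p = 0.0360). A match in such a window is a description of letters, not of binding.

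Epithelial genes also rose. Of 34 tested adhesion and junction genes 15 rose and 4 fell, with a median of 0.46. Cldn7, a tight junction protein, had signals of 8.56 and 8.35 at day 3 and of 11.10 and 11.03 at day 6, and its change was 2.61 ± 0.13 (adjusted p = 3.28e-07). Cldn4 rose by 2.22 ± 0.10 and Cldn3 by 1.73 ± 0.17. Epcam, an epithelial adhesion molecule used to follow reprogramming, went from 8.59 and 8.76 to 10.21 and 10.44 (1.65 ± 0.14, adjusted p = 1.25e-05). The mean over the probe sets of Epcam changed by 0.83, also past the threshold. The 4 junction genes that fell were Dsp, Pkp2, Cldn12 and Crb3, the first 2 being proteins of the desmosome plaque.

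Cdh1, or E-cadherin, is the adhesion molecule of epithelial cells and a textbook marker of the mesenchymal-to-epithelial step. It read 12.76 and 12.85 at day 3 and 12.71 and 12.58 at day 6 under CSA. It thus was bright on all arrays and changed by -0.16 ± 0.07, which did not pass (adjusted p = 0.0986). With arrays centred its change was -0.37 and passed. In DMSO it rose by 0.63, from 12.52 on both arrays to 13.17 and 13.12, and the courses differed by -0.79 ± 0.09 (adjusted p = 0.00171). Across the list 25 of 34 junction genes rose in DMSO with a median of 1.03, and for 11 of 34 the course under CSA was lower, against 3.43% of all genes, with 0 higher. Cldn7 and Dsp were among these 11.

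Regulators of epithelial identity rose with the claudins. Of 21 tested members 10 rose and 1 fell, with a median of 0.68. Tfap2a, a factor of surface ectoderm, went from 5.86 and 5.35 to 9.30 and 8.95. Esrp1, a splicing regulator of epithelial cells, rose by 1.80 ± 0.19, the protease inhibitor Spint1 by 1.37 ± 0.10 and Elf5 by 1.71 ± 0.20. The related Esrp2 fell by 0.51 on the log2 scale and rose in DMSO by 0.37. In DMSO 14 of the 21 regulators rose and 0 fell, with a median of 1.34. For 5 the course under CSA was lower and for 0 higher, against 3.43% and 2.36% of all genes. Keratins moved in both directions under CSA, 6 up and 3 down of 14, with a median of 0.13 that turned to -0.08 under centring. Krt18, a keratin of simple epithelia, rose from 7.20 and 7.68 to 9.87 and 9.89 (2.44 ± 0.17, adjusted p = 3.43e-06), while its partner Krt8 stayed bright, at 14.09 and 14.04 and then 13.91 and 13.87, and did not pass. Krt14, a keratin of basal epidermis, was lower at day 6 by 0.64 on its brightest probe set, but another probe set was past the threshold in the opposite direction. The mean over its probe sets was 0.29.

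The genes of the cornified envelope, the protein shell of terminally differentiating keratinocytes, had the largest median of the lists with at least 10 tested members, 1.58. Of 43 tested members 26 rose and 2 fell, and 24 rose and 2 fell under centring. The filter takes the mean of all 8 arrays, so a member high only at CSA day 6 can be tested because of that group. The counts and median of this list, and its counts for the difference of the courses, can include such members, and their number was not determined. Crct1, a small cysteine-rich protein of the epidermal differentiation cluster, had signals of 7.69 and 7.85 at day 3 and of 11.49 and 11.70 at day 6. The change was 3.82 ± 0.14, or 14.2-fold (adjusted p = 5.8e-08). Asprv1, a protease that processes filaggrin, went from 9.58 and 9.63 to 12.30 and 12.17, and Sprr1a, a proline-rich envelope precursor, from 8.43 and 8.52 to 10.84 and 10.98. Several late cornified envelope (Lce) genes rose from low or middling signals, where the median of all probe sets was 6.15 on both CSA day 3 arrays. Lce1d read 6.77 and 7.22 and then 10.09 and 10.00, Lce1a1 read 7.03 and 6.97 and then 9.78 and 9.94, and Lce3c read 3.52 and 5.92 and then 9.87 on both arrays. The Lce genes are close relatives, and probe sets may read more than 1 of them. The protease Klk6 rose by 3.96 ± 0.37 and Dmkn, a protein secreted by keratinocytes, by 1.27 ± 0.10.

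In DMSO 17 members of this list rose and 6 fell, with a median of 0.31. For 12 of 43 the course under CSA was higher, against 2.36% of all genes, and for 2 it was lower. Lce1d changed by -0.52 in DMSO, a difference between the courses of 3.57 ± 0.43 (adjusted p = 0.00186), and Lce1a1 changed by 0.02 there (difference 2.83 ± 0.37, adjusted p = 0.00247). Crct1 rose in both courses, with a difference of 1.73 ± 0.20 (adjusted p = 0.00143). The hyperproliferation keratin Krt6a did the same as the Lce genes, at 9.16 and 9.34 and then 10.47 and 10.52 under CSA, with a change of -0.15 in DMSO (difference 1.39 ± 0.17, adjusted p = 0.00196).

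Promoters of several envelope genes hold the AP-1 motif TGANTCA. It stood in the 250-base window of 16 of 54 listed envelope genes (29.6%) and of 2113 of all 27025 genes (7.82%), searched on both strands, and it overlaps no CArG box by its letters. Sprr1a, chr3:92485882-92486131 on the minus strand, and Rptn, chr3:93393449-93393698 on the plus strand, are printed because both rose and lie in the epidermal differentiation cluster. The motif is in capitals.
Sprr1a: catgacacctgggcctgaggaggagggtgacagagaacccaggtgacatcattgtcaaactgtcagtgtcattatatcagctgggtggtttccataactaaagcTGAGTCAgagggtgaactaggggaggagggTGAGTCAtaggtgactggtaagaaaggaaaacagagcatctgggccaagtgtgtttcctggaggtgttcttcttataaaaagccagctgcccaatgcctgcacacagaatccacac
Rptn: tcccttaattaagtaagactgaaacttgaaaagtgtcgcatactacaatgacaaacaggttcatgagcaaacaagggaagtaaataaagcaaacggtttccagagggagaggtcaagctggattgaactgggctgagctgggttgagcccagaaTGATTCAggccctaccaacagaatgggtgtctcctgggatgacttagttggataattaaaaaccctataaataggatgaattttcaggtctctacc
Sprr1a holds 2 matches, at 146 to 140 and 116 to 110 bases before the start, and Rptn 1, at 96 to 90 bases. Rptn, an envelope-associated matrix protein, went from 6.89 and 6.37 to 8.17 and 8.24, a change of 1.58 ± 0.33 (adjusted p = 0.00418). Of the 16 genes with a match 12 could be tested, and 6 of these rose and 0 fell. Of all 43 tested envelope genes 26 rose (60.5%) and 2 fell (4.65%), so genes with a match did not rise more often than the list. A link of the motif to the rise was not tested. Besides Sprr1a and Rptn the 6 that rose were Dmkn, Sbsn, Sprr2h and Lor, with Lor at 1.16 (adjusted p = 0.0477). Ivl at 0.97 (adjusted p = 0.0964) and Krtdap at 0.12 (adjusted p = 0.248) were among the 6 that did not pass.

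Of the 3 reprogramming factors that could be tested, Klf4 and Myc rose under CSA and Pou5f1 did not pass. Pou5f1 read 9.53 and 9.21 at day 3 and 9.08 and 9.21 at day 6, so the days met, and its change of -0.23 ± 0.18 did not pass (adjusted p = 0.396). In DMSO it rose by 1.33, from 9.18 and 8.58 to 10.31 and 10.10, and the courses differed by -1.56 ± 0.26 (adjusted p = 0.00907). Klf4 rose from 9.83 and 9.91 to 10.58 and 10.51 (0.68 ± 0.11, adjusted p = 0.000881). The rise of Myc was 0.42 ± 0.08 (adjusted p = 0.00275) and did not pass with arrays centred. Sox2 lay below the filter on low signals, at 5.13 and 3.87 at day 3 and 5.78 and 5.73 at day 6. No source used here says whether these probe sets read the doxycycline-driven copies as well as the endogenous genes.

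Of 24 tested genes of the pluripotency network 8 rose and 3 fell, with a median of 0.43. Fgf4, a growth factor of pluripotent cells, went from 8.32 and 8.36 to 9.35 and 9.50 (1.08 ± 0.13, adjusted p = 0.000101), and the Polycomb protein Phc1 rose by 1.02 ± 0.15. The RNA-binding protein Lin28a fell from 8.89 and 8.84 to 7.62 and 7.23 (-1.44 ± 0.20, adjusted p = 0.00033), the DNA methyltransferase Dnmt3b fell by 1.05 on the log2 scale, and Mycn was the other member that fell. Nanog lay below the filter, at 1.78 and 1.24 at day 3 and 7.20 and 6.21 at day 6, with 7.51 and 7.56 in DMSO at day 6, and was not tested. In DMSO 11 members rose and 2 fell.

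Alkaline phosphatase (Alpl), a surface enzyme used as an early marker of reprogramming colonies, was among the largest falls of the course. It read 8.38 and 8.65 at day 3 and 6.10 and 6.71 at day 6, and dropped by 2.11 ± 0.29 (adjusted p = 0.000302). In DMSO it read 6.62 and 6.57 and then 6.55 and 6.5 and did not pass. The CSA arrays lay above the DMSO arrays at day 3 and on both sides of them at day 6. The courses differed by -2.04 ± 0.41 (adjusted p = 0.0211). Of 12 tested early surface markers 3 rose and 2 fell, near the 20.2% and 15.8% of all genes. The median of this list, 0.03, turned to -0.19 under centring. Prom1 rose by 1.42 ± 0.10 and Cd24a fell by 0.39 on the log2 scale.

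In the cell cycle lists rises were no more frequent than over all genes. Of 46 tested genes of DNA replication 4 rose (8.7%) and 10 fell (21.7%), where 20.2% and 15.8% of all genes did, with a median of 0.01 that turned to -0.21 under centring. The ribonucleotide reductase subunit Rrm2 read 12.82 and 12.83 at day 3 and 12.58 and 12.38 at day 6 (-0.35 ± 0.07, adjusted p = 0.00485), a call that ended under quantile normalization and without the intensity trend. The polymerase subunit Pole2 fell by 0.66 on the log2 scale and the clamp loader subunit Rfc4 by 0.47. In the list of G2 and mitosis 9 of 52 rose (17.3%) and 7 fell (13.5%), near those shares, with a median of 0.07 that turned to -0.14 under centring. The kinetochore protein Cenpf rose by 0.88 ± 0.14 and the checkpoint kinase Bub1b by 0.84 ± 0.17, while cyclin A2 (Ccna2) fell by 0.43 on the log2 scale, a call that ended without the intensity trend and a value that centring moved to -0.65. Under centring 18 replication genes and 12 mitotic genes fell.

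In DMSO 31 of the 46 replication genes and 28 of the 52 mitotic genes fell, with medians of -0.46 and -0.34. The course under CSA was higher for 9 replication genes and 12 mitotic genes and lower for 0 of either list. Over all genes it was higher for 2.36% and lower for 3.43%. Rrm2 fell by 0.89 in DMSO, from 13.30 and 13.40, and the difference was 0.54 ± 0.11 (adjusted p = 0.0181). For Ccna2 the difference was 0.55 ± 0.13 (adjusted p = 0.0371). Cdk1, the kinase of mitotic entry, rose under CSA from 10.73 and 10.97 to 11.15 and 11.11 and fell in DMSO from 11.71 and 11.81 to 11.44 and 11.41. At day 6 the DMSO arrays of Cdk1 were thus still the higher ones.

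Some inhibitors of cyclin-dependent kinases rose. Cdkn2a, the locus of p16 and p19Arf and a known barrier to reprogramming, had signals of 8.17 and 7.51 at day 3 and of 10.60 and 10.41 at day 6. The change of 2.66 ± 0.19 (6.31-fold, adjusted p = 3.53e-06) exceeded the 1.55 in DMSO (difference 1.10 ± 0.26, adjusted p = 0.0402). The probe set does not tell the 2 products apart. Its neighbour Cdkn2b rose by 1.02 ± 0.10 and Cdkn1b by 0.84 ± 0.18, the latter not without CSA day 3 replicate 1 or CSA day 6 replicate 1. Cdkn1a, the p53 target p21, read 13.51 and 13.53 and then 13.37 and 13.49 and did not pass (adjusted p = 0.305). With arrays centred its change was -0.31 and passed. In all 7 of 17 members of the list of G1 cyclins, kinases and inhibitors rose and 0 fell, the others being Ccnd3, Cdk2, Cdk6 and Rbl2; under centring 3 rose and 2 fell.

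Genes of ribosome production fell almost as a block. Of 39 tested members of ribosome biogenesis 34 fell and 0 rose, with a median of -0.45, and 32 fell under quantile normalization and 37 under centring. Nop16, a nucleolar assembly factor, read 11.34 and 11.29 at day 3 and 9.97 and 10.15 at day 6, a change of -1.26 ± 0.10 (adjusted p = 6.68e-06). Polr1e, a subunit of RNA polymerase I, fell by 0.86 on the log2 scale and the snoRNP protein Nhp2 by 0.73. In DMSO 33 of 39 fell and 0 rose, and the test of the difference passed for 0 of the 39. The ribosome list therefore fell in both treatments.

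Oxidative phosphorylation gave a similar picture with smaller steps. Of 67 tested subunits 48 fell and 1 rose, with a median of -0.32; 30 fell under quantile normalization and 63 under centring. Cytochrome c (Cycs) read 14.03 and 14.05 and then 13.31 on both arrays (-0.73 ± 0.06, adjusted p = 6.07e-06), and the complex I subunit Ndufa10 fell by 0.85 on the log2 scale. Of 33 proteasome subunits 18 fell and 2 rose, the 2 being Psme1 and Psmd2, with 8 falling under quantile normalization. In DMSO 28 proteasome subunits fell, and for 6 of the 33 the course under CSA was higher, against 2.36% of all genes. Psmd7 fell by 0.65 on its brightest probe set, while the mean over its probe sets changed by -0.12 and did not pass.

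Amino acid supply genes fell too. In the list of serine, one-carbon and asparagine synthesis 12 of 18 fell and 1 rose, with a median of -0.51, and 12 fell under quantile normalization. Psph, which makes serine from phosphoserine, read 12.41 and 12.36 at day 3 and 11.03 and 10.87 at day 6, a change of -1.44 ± 0.09 (adjusted p = 1.37e-06). Psat1, the enzyme upstream of it, fell by 0.96 and the mitochondrial folate enzyme Mthfd2 by 0.99. Their DMSO levels were lower at both days: Psph read 10.77 and 10.63 and then 9.69 and 9.66. Aldh1l2, another mitochondrial folate enzyme, fell under CSA from 10.56 and 10.44 to 9.86 and 9.84 and rose in DMSO from 6.57 and 6.59 to 7.94 and 7.81. The 2 treatments of Aldh1l2 remained apart at day 6 but by less than at day 3.

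Of 17 amino acid transporters 7 fell and 1 rose. Slc7a3, a carrier of cationic amino acids, fell from 12.22 and 12.42 to 11.53 and 11.34 under CSA and rose by 0.40 in DMSO (difference -1.29 ± 0.14, adjusted p = 0.00124). Slc38a4 fell by 0.99 on the log2 scale and Slc7a5 by 0.60. Of 35 aminoacyl-tRNA synthetases, which load amino acids on tRNA, 14 fell and 2 rose, with Hars at -0.74 ± 0.06 and Tars at -0.70 ± 0.07. In the unfolded protein response 14 of 32 fell and 2 rose, with a median of -0.16. The ER stress factor Manf went from 13.02 and 12.97 to 12.53 and 12.49, Sec61b of the translocon fell by 0.56, and Ero1b, an oxidase of the ER, rose by 1.33 ± 0.15. In DMSO 13 members of that list fell and 8 rose.

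Glycolysis split by enzyme. Of 22 tested members 11 rose and 7 fell. The glucose transporter Slc2a1 rose from 10.73 and 10.71 to 12.43 and 12.38 (1.68 ± 0.07, adjusted p = 1.33e-07), and the isoenzyme Aldoc rose by 1.95 ± 0.24, less than the 3.78 in DMSO (adjusted p = 0.0141 for the difference). Eno3 fell by 1.0 on the log2 scale. Of 17 hypoxia-responsive genes 10 rose and 2 fell, with a median of 0.69. Bnip3, a mitophagy receptor, went from 8.05 and 8.01 to 10.61 and 10.62, and Epas1, the oxygen-sensitive factor HIF-2α, rose by 1.72 ± 0.09. Ndrg1 fell from 12.41 and 12.35 to 11.48 and 11.44 and did not pass in DMSO, a difference of -0.84 ± 0.09 (adjusted p = 0.00124). For 5 of the 17 the course under CSA was lower and for 0 higher, against 3.43% and 2.36% of all genes.

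Of 20 cholesterol synthesis genes 8 fell and 1 rose, with 14 falling under centring. Among those that fell were Stard4, a sterol carrier, at -0.78 ± 0.10 (-0.38 as the mean of its probe sets) and Fdps at -0.49 ± 0.06. Of 17 fatty acid genes 4 fell and 2 rose, and the median of -0.14 turned to 0.02 under quantile normalization. Acsl6, an acyl-CoA synthetase, fell from 10.11 and 10.03 to 6.80 and 7.53 (-2.91 ± 0.19, adjusted p = 2.17e-06). Its day 3 arrays lay far above its day 6 arrays, and the fall was larger than the 1.37 in DMSO (difference -1.54 ± 0.27, adjusted p = 0.0110). The desaturase Scd1 rose by 0.48 ± 0.06 (0.19 as the mean of its probe sets).

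The target pathway of CSA moved in both directions between the days. Of 21 tested calcineurin and NFAT genes 7 rose and 5 fell, and the median of 0.10 turned to -0.11 under centring. Rcan1, which inhibits calcineurin and is itself an NFAT target, read 11.97 and 11.99 at day 3 and 11.31 and 11.32 at day 6 (-0.66 ± 0.07, adjusted p = 4.41e-05). In DMSO it fell by 0.40, from 11.98 and 12.01 to 11.65 and 11.55, and the courses did not differ past the threshold (adjusted p = 0.161). Nfatc4 rose by 1.27 ± 0.11 (adjusted p = 1.14e-05; 0.84 as the mean of its probe sets) and Rcan3 by 1.24 ± 0.18. The rise of the catalytic subunit Ppp3ca, 0.39 ± 0.08 (adjusted p = 0.00236), did not pass under centring. Of 10 tested NFAT targets 4 rose and 3 fell. Ccl2, a chemokine that attracts monocytes, rose from 8.29 and 8.04 to 9.28 and 9.43 and fell by 0.52 in DMSO (difference 1.72 ± 0.23, adjusted p = 0.00285). Of 11 cyclophilins, the protein family that binds CSA, 2 rose and 2 fell (18.2% each), near the 20.2% and 15.8% of all genes. The median of 0.07 turned to -0.14 under centring, and the calls of Ppil2 and Ppil3 were ended by 11 alternatives each.

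In lists of signalling families, which hold ligands, receptors, targets and antagonists together, the number of rises against falls depended on the scaling. Of 22 TGF-β ligands, receptors and targets 11 rose and 4 fell, with the ligand Tgfb2 at 1.24 ± 0.10 and the activin subunits Inhba at 1.21 ± 0.13 and Inhbb at 1.22 ± 0.12. Of 23 BMP genes 9 rose and 2 fell: the ligand Bmp4 went from 6.43 and 6.25 to 8.46 and 8.31, and the antagonist Grem1 rose by 1.36 ± 0.16. The target Id2 fell by 0.70 on the log2 scale (-0.46 as the mean of its probe sets). Of 34 Wnt genes 13 rose and 4 fell. Antagonists were found on both sides, with Sfrp1 at 1.55 ± 0.17, Dkk2 at 2.23 ± 0.22 and Wif1 at -2.08 ± 0.19. Among 14 EGF family genes 6 rose and 0 fell. With arrays centred 9 TGF-β genes rose and 6 fell, 7 BMP genes rose and 4 fell, 9 Wnt genes rose and 7 fell, and 3 EGF family genes rose and 0 fell.

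Some inflammatory genes rose from low levels. Of 24 interferon-responsive genes 9 rose and 0 fell, with a median of 0.87, but 3 rose under quantile normalization and 3 under centring. Irf9, a subunit of the interferon-activated factor ISGF3, went from 7.69 and 7.41 to 9.11 and 9.25 (1.63 ± 0.19, adjusted p = 8.83e-05). The call of Usp18 (2.05 ± 0.54) ended on leaving out any CSA array. Of 10 acute-phase genes 4 rose and 0 fell: serum amyloid Saa1 read 4.99 and 5.76 and then 9.97 and 9.84 (4.53 ± 0.23, adjusted p = 3.9e-07), and the complement protease C1s1 rose by 2.34 ± 0.13. Of 20 chemokines and cytokines 8 rose and 2 fell, with Il34 at 2.01 ± 0.28.

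Outside the lists, the largest falls included U90926, a transcript of unsettled function, at 12.57 and 12.56 and then 9.08 and 9.10 (-3.48 ± 0.09, adjusted p = 2.58e-09). In DMSO it fell further, by 5.11, and the courses differed by 1.64 ± 0.12 (adjusted p = 0.000285). The G protein subunit Gng2 fell by 2.51 on the log2 scale, the pro-apoptotic gene Hrk by 2.00, the potassium channel Kcnn4 by 1.94, and Spink2, a protease inhibitor, from 12.92 and 12.97 to 11.02 and 11.05. Large rises outside the lists included the opioid precursor Penk at 3.93 ± 0.43, the receptor tyrosine kinase Ret at 4.0 ± 0.21 and Lbp, the binding protein of bacterial lipopolysaccharide, at 4.82 ± 0.52. Of these rises the course differed between treatments for Ret (-1.37 ± 0.29, adjusted p = 0.0255).

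The CSA course and the DMSO course use different arrays, and both were fitted in the same model. In DMSO 10970 probe sets (40.6%) and 5732 genes passed (45.7%), of which 3272 rose (26.1%) and 2460 fell (19.6%). Of the genes that rose under CSA 74.4% also rose in DMSO, and of those that rose in DMSO 57.7% also rose under CSA; for falls the shares were 74.9% and 60.4%. Across genes, which are not independent replicates, the changes of the 2 courses correlated at 0.654. The course differed between treatments for 726 genes (5.79%), 296 with a higher and 430 with a lower change under CSA. Without the intensity trend limma called 0 probe sets for this difference, with 4287 at an unadjusted p under 0.05, against 1144 called (4.23%) and 5048 with the trend. Without CSA day 3 replicate 1 the number was 390, without CSA day 3 replicate 2 it was 405, without DMSO day 6 replicate 1 it was 524, without DMSO day 6 replicate 2 it was 434 and without CSA day 6 replicate 2 it was 568.

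**Figure D3:**
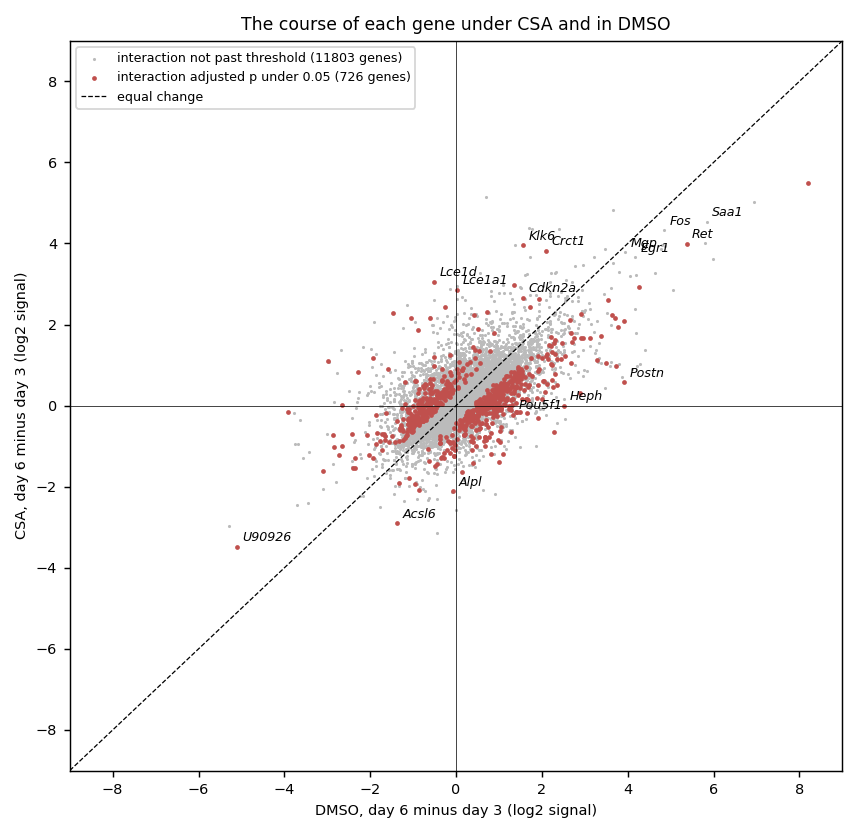
Each point is 1 of 12529 genes, with its change from day 3 to day 6 in DMSO on the horizontal axis and under CSA on the vertical axis, both in log2 signal; red points are the 726 genes whose courses differ past an adjusted p of 0.05, and the dashed line marks equal change. Fos and Mgp lie near the line, Lce1d and Lce1a1 above it, and Postn, Heph and Alpl below it.

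Genes with opposite calls in the 2 courses were few, and most of them belong to none of the lists. In all, 28 genes rose under CSA and fell in DMSO, 11 of them list members. Among the 28 were Vim, Cdh2, Cnn2, Timp2, Cdk1, Mcm7 and Ccl2 and, outside the lists, Fhl1, named here after their values were seen. N-cadherin (Cdh2) rose from 11.12 and 11.15 to 11.45 and 11.44 under CSA and fell by 0.73 in DMSO. Another 44 fell under CSA and rose in DMSO, 7 of them list members. Among the 44 were the list members Aldh1l2, Gpt2, Slc7a3, Slc7a1, Crb3, Esrp2 and Klf10 and, outside the lists, Ak5 and Mamdc2. The alanine transaminase Gpt2 fell from 11.93 and 11.89 to 11.17 and 10.96 under CSA and rose in DMSO from 10.02 and 10.05 to 11.12 and 10.91, so that at day 6 the arrays of the treatments overlapped.

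The largest difference of the courses in the downward direction was that of Postn, a matricellular protein that binds collagen. Under CSA it read 6.22 and 6.90 at day 3 and 7.08 and 7.21 at day 6 and did not pass (adjusted p = 0.15). In DMSO it rose from 6.04 and 5.58 to 9.68 and 9.76, and the courses differed by -3.33 ± 0.40 (adjusted p = 0.00182). Heph, a copper-dependent ferroxidase, did not pass under CSA and rose by 2.52 in DMSO (difference -2.52 ± 0.51, adjusted p = 0.0206). Cpxm2 rose in both, by 1.06 under CSA, a call that ended without CSA day 6 replicate 1, and by 3.49 in DMSO. In the collagen list 2 of 32 members had a higher and 3 a lower course under CSA, against 2.36% and 3.43% of all genes. Col1a2 (-0.88 ± 0.09, adjusted p = 0.000784) and Col3a1 (-0.54 ± 0.12, adjusted p = 0.0314) were among the lower ones.

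**Figure D4:**
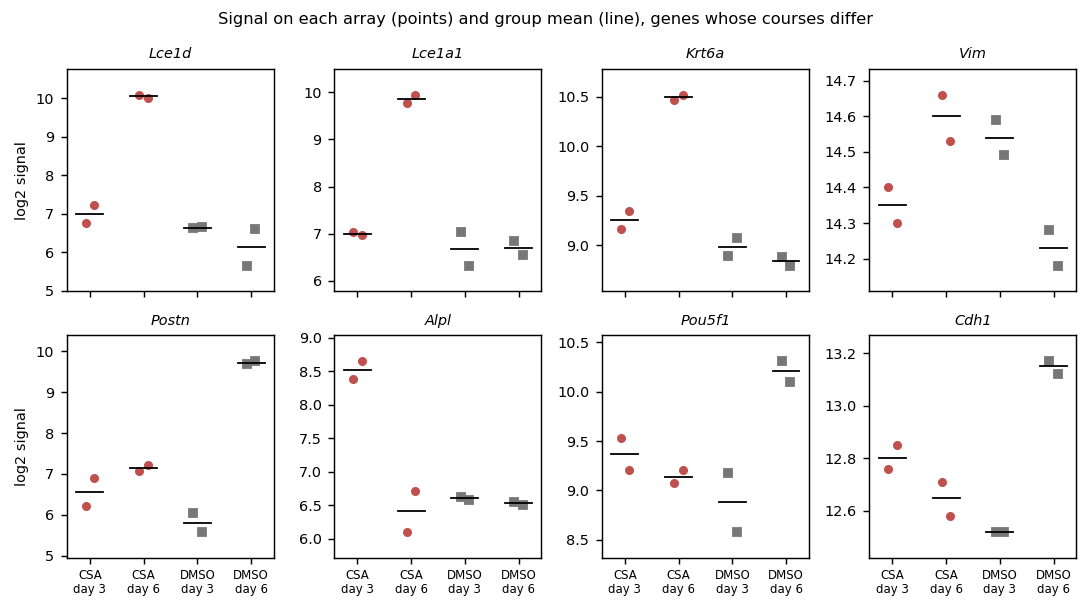
The log2 signal of 8 genes whose courses differ is shown for each of the 8 arrays as points, circles for CSA and squares for DMSO, with a line at the group mean and a scale of its own in each panel. Lce1d and Lce1a1 reach about 10 only in the CSA day 6 arrays, Postn reaches 9.68 and 9.76 only in DMSO at day 6, and Alpl is high only on the CSA day 3 arrays.

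The signal of markers of other cell types was summed by list, with no expected share to set it against. The summed signal of 15 macrophage markers was 0.00195% to 0.00206% of all signal at day 3 and 0.00289% to 0.00292% at day 6 under CSA, and 1 of 6 tested members passed, the lysosomal Cd68, at 1.19 ± 0.23. That of 13 endothelial markers went from 0.00645% and 0.00674% to 0.00890% and 0.00958%, with 2 of 6 tested members rising, Tek and Esam, neither of which passed with arrays centred. Neuronal and glial markers fell as a sum from 0.0701% and 0.0689% to 0.0596% and 0.0622%. The median signal of this list was above those of the macrophage and endothelial lists, at 7.09 and 7.06 at day 3 and 7.61 and 7.72 at day 6. The medians of all probe sets on these arrays were 6.15 on both and then 6.49 and 6.53. They are not a like measure, because the list medians take 1 probe set per gene. Of the 10 tested members of this list 4 rose and 3 fell. The largest fall was that of Tubb3, a tubulin of neurons, from 11.54 and 11.43 to 10.02 and 9.85. Of the lymphoid, erythroid and skeletal muscle markers 1, 2 and 3 could be tested, and 0 passed with limma. On the CSA arrays at day 6 their sums were at most 0.00127%, 0.000966% and 0.00202% of all signal. Single markers differed in signal on the CSA arrays. C1qa of macrophages lay between 0.82 and 2.47, but Tyrobp of the same list between 3.35 and 6.21. Cd3e of T cells lay between 2.80 and 3.94, but Ms4a1 of the lymphoid list between 5.12 and 5.87. All of these lay below the filter on low signals, and the presence of such cells was not tested. The part of these markers in the changes above was not tested.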

How the data were processed

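RNA of 8 samples, 2 per group, was measured on Affymetrix 3' expression arrays. The authors deposited log2 signals for 45037 probe sets; per the submitters' processing notes they were made with MAS5, with no version, scaling target or handling of low signals stated there. Detection calls, scan dates and batches were not analysed here. MAS5 scales each array by a constant, and on all 8 arrays the mean of the anti-logged signals with 2% trimmed per end lay between 496.8 and 497.5, so a shift in overall RNA is not seen and dim signals are noisy.

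Probe sets with a mean log2 signal of at least 5.37 (the 40th percentile) were tested, 27022 in all. Gene names came from the platform annotation, which gave 1 symbol for 34945 probe sets, several for 932 and none for 9160; 34741 matched a current gene by Entrez ID. Each of 12529 genes was represented by its brightest tested probe set. limma 3.58.1 (R 4.3.3) fitted 1 mean per group on all 8 arrays (4 residual degrees of freedom), with an intensity trend; tests were two-sided and adjusted by Benjamini-Hochberg over all tested probe sets, and 0.05 was the threshold. The contrasts were day 6 against day 3 under CSA and in DMSO, and their difference. The fit was tested on simulated data.

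Named genes are up to 15 of the largest rises and falls with non-overlapping arrays (means floored at a log2 signal of 6 for ranking), up to 4 members per list with the smallest p, up to 8 per direction of the difference of the courses, and 21 genes of interest (such as Pou5f1, Cdh1, Vim and Rcan1). Other list members named were chosen after their values were seen. The comparison, the 59 gene lists and these rules were chosen with earlier results of these data known. Replicate numbers were checked for pairing: the correlation of deviations of same-numbered arrays lay between -0.003 and 0.034, so no effect shared by same-numbered arrays was seen. A check of this kind cannot show that the samples were unpaired. The alternatives tried were other filters, scalings, constants and probe set rules, no intensity trend, a replicate block, the 4 arrays alone and leaving out each array.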

Additional observations from a re-analysis of the deposited data

Results flagged for a closer look

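Of 247 tested genes named by the rule, 57 had a course from day 3 to day 6 that differed between the treatments. In limma's test of the difference their adjusted p ran from 0.000285 to 0.0434 (n = 2 arrays per group). Some of them were named because their courses differ by this same test, so the 57 give no rate to set against all genes. Values are the change under CSA minus the change in DMSO, on the log2 scale. Without the intensity trend 0 of these differences passed.

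In the envelope and keratin genes the course under CSA was higher for Lce1d by 3.57, Lce1a2 by 3.22, Lce1a1 by 2.83, Lce3b by 2.78 and Lce1f by 2.69. The proteases and other envelope genes differed likewise, Klk6 by 2.39, Crct1 by 1.73, Asprv1 by 0.71, Sprr1a by 0.71 and Krt6a by 1.39. In the contractile and mesenchymal genes the difference was Actg2 0.91, Myl9 0.90, Acta2 0.81, Tagln 0.74 and Vim 0.55, and for the inhibitor of metalloproteinases it was Timp2 0.77. Cell cycle genes had differences of Cdkn2a at 1.10, Ccna2 at 0.55 and Rrm2 at 0.54, and genes listed as neuronal of Nefl at 0.87 and Tubb3 at 0.86. Other genes with a higher course were Trim36 at 3.10, Slc16a11 at 2.74, Bcl2l15 at 2.68, Ccl2 at 1.72, U90926 at 1.64 and Plin2 at 0.58.

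A lower course under CSA was found in matrix and secreted genes, Postn at -3.33, Cpxm2 at -2.43, Olfm2 at -2.39, Mamdc2 at -2.29, Dkk2 at -1.39 and Wif1 at -1.22. The collagens and fibronectin differed less, Col1a2 at -0.88, Col3a1 at -0.54 and Fn1 at -0.54. Of the reprogramming and epithelial genes the values were Pou5f1 at -1.56, Alpl at -2.04, Cdh1 at -0.79 and Cldn7 at -0.94. Metabolic genes and transporters were Aldoc at -1.83, Acsl6 at -1.54, Slc7a3 at -1.29, Elovl7 at -0.89, Aldh18a1 at -0.53 and Ak5 at -2.0. The stress-responsive and imprinted genes were Atf3 at -0.99, Btg2 at -0.63, Ndrg1 at -0.84, Peg3 at -1.07 and Phlda2 at -1.0. The rest were Heph at -2.52, Qpct at -2.22, Ret at -1.37, Kcnn4 at -0.98, Spink2 at -0.58 and Dnmt3a at -0.68.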

How the results depend on the processing

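Of 237 named genes past the threshold under CSA, 198 passed under every alternative run and 39 lost the call in at least 1. Of the named genes not past it, Cd44, Cdh1, Cdkn1a and Trim36 passed under at least 1 alternative. The sign changed for 2: Plin2 was -0.01 when arrays were centred, and Krt14 was 0.29 as the mean of its probe sets, where the cause was not tested. Leaving out each array in turn gave 5417 to 8822 called probe sets under CSA, 8106 to 11012 in DMSO and 390 to 994 for the difference of the courses, with a lone array then assumed to vary like the other groups. Averaging the probe sets of each gene before the test, which tests fewer features, gave 4098, 5326 and 655 genes. Without the intensity trend the difference of the courses had 0 calls and the course under CSA 5651; the cause was not tested. With the replicate number as a block, although it is not settled that the numbers pair the arrays, the counts were 8516, 11131 and 1208. Centring kept 6273 and quantile normalization 6066 of the 8358 probe sets called under CSA. With no filter 7495 were called and at the 60th percentile 7797. Adding 8 or 32 to the signals gave 8496 and 8678. Signal over background limits what is said of dim genes: adding 32 lowered the change of Cxcl5 from 3.43 to 2.13 and that of Saa2 from 2.09 to 1.26.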

Other observations

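Chromatin regulators and imprinted genes were measured as further groups. Of 48 chromatin remodelers and histone modifiers 17 rose and 3 fell under CSA, with a median of 0.17 that turned to -0.05 when arrays were centred. Hdac7, a class II histone deacetylase, read 7.79 and 7.94 at day 3 and 9.37 and 9.57 at day 6 (1.60 ± 0.16, limma adjusted p = 3.62e-05). Jarid2, a cofactor of Polycomb, rose by 0.98 ± 0.13, the histone demethylase Kdm3a by 0.69 ± 0.10 and the methyltransferase Kmt2d by 0.69 ± 0.11. Of 14 DNA methylation and demethylation enzymes 2 rose and 2 fell (14.3% each), where 20.2% and 15.8% of all genes did. The median of 0.11 turned to -0.11 under centring. Dnmt3a rose by 0.51 ± 0.10 while Dnmt3b fell, and Tet1 changed by 0.97 ± 0.94, which did not pass (adjusted p = 0.479). Of 20 imprinted genes 6 rose and 4 fell, with a median of 0.09 that turned to -0.12 under centring. Peg3, a zinc finger gene expressed from the paternal allele, went from 10.23 and 10.11 to 11.84 and 11.86, the noncoding Meg3 rose by 1.85 ± 0.14 (1.09 as the mean of its probe sets), and Mest fell from 11.47 on both arrays to 10.28 and 10.45.

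Stress-related lists held rises and falls. Of 28 NRF2 antioxidant and metallothionein genes 8 fell and 3 rose, but 4 fell and 7 rose under quantile normalization and 13 fell and 3 rose under centring, with the carbonyl reductase Cbr3 from 12.44 and 12.36 to 11.43 and 11.40. Of 17 heat shock genes 6 fell and 3 rose, the mitochondrial chaperonin Hspe1 by -0.57 ± 0.06 and the small heat shock protein Hspb1 by 0.51 ± 0.07. Of 24 p53 targets 7 rose (29.2%) and 4 fell (16.7%), where 20.2% and 15.8% of all genes did. Their median of 0.09 turned to -0.13 under centring, and Plk2 was among the risers at 0.87 ± 0.08. Of 34 lysosomal genes 12 rose and 10 fell, with a median of 0.12 that turned to -0.09 under centring, with the cathepsins Ctsh (2.07 ± 0.38) and Ctsd (-0.44 ± 0.06) on opposite sides. Of 16 genes of the ATF4 and CHOP program 6 rose and 4 fell, among the latter Atf4 itself, by -0.21 ± 0.07. Of 11 antigen presentation genes 2 rose (18.2%) and 1 fell (9.09%), no more often than over all genes (20.2% and 15.8%).

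Markers of other fates were sparse. Of 9 adipocyte genes 2 rose (22.2%) and 1 fell (11.1%), near the 20.2% and 15.8% of all genes. The 1 that fell was the regulator Pparg, from 9.59 and 9.51 to 8.42 and 8.35. Of 12 endoderm, trophoblast and germ layer markers 3 rose and 0 fell, with a median of 0.14 that turned to -0.08 under centring and -0.05 under quantile normalization, Dab2 from 9.48 on both arrays to 10.48 and 10.56. Of 3 tested germline genes Slc25a31 was lower at day 6 (-1.43 ± 0.37), a call that ended without either CSA day 3 array.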
